A study of Laxus oneistus with 16 samples.

Results

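The effect of sulfide under anoxia was measured in the marine nematode *Laxus oneistus* by comparing 3 RNA-seq libraries of worms incubated without oxygen in the presence of sulfide (AS, replicates 1 to 3) with 4 libraries of worms incubated without oxygen and without added sulfide (A, replicates 1, 2, 3 and 5). These are 7 of the 16 libraries of the series. Each library came from a batch of 50 adults, picked by hand from shallow-water sand and kept for 24 h in the dark in vials of filtered seawater, inside bags flushed with nitrogen. The worms of both conditions carried their coat of the sulfur-oxidising symbiont *Candidatus* Thiosymbion oneisti, whose reads were removed before the counts were made. According to the labels, 11 µM sulfide was added to AS. The study's main text gives only an upper limit, which 11 µM lies below, and its supplementary legends give a higher value. The sulfide left after the incubation is not given in the sources used here. The nematodes are wild animals from several field trips, and the labels do not say which trip each batch came from. Replicates are separate batches of worms, so p-values measure the spread between batches within A, AS and H. The paper states that replicate incubations began at the same time, and the labels give no sequencing run. A difference between trips or runs therefore cannot be told apart from one between conditions. The 3 hypoxic libraries (H) came from vials open to air, whose water the paper places below full air saturation. These libraries entered the model only to share its estimate of the spread, and their levels are given for orientation. Of 27984 transcripts of the *de novo* transcriptome, 17178 were tested, namely those with at least 10 reads in at least 3 libraries of A or of AS. A further limit required 10 reads in sum over 11 libraries, namely all but A replicates 3 and 5 and O (normoxic) replicates 2, 3 and 5, and it removed 0 of the transcripts that had passed.

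Sulfide is both a poison and a metabolite of animals. It blocks cytochrome *c* oxidase, the last complex of the mitochondrial respiratory chain, and it binds to the haem of globins. Animals of reduced sediments detoxify it in mitochondria, where sulfide is oxidised to persulfides that sulfurtransferases of the rhodanese type hand on to sulfite or glutathione, a route that ends in oxygen consumption. Without oxygen, many invertebrates run malate dismutation, in which phosphoenolpyruvate is carboxylated and malate is converted to succinate and propionate. The question of this comparison is which nematode transcripts differ when sulfide is present in addition to anoxia.

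The 7 libraries held between 13865529 and 17673789 counts. The limit over 11 libraries divides the A libraries into 2 sets, replicates 1 and 2 and replicates 3 and 5. In A replicates 3 and 5, the transcripts under this limit of 10 reads held 1.16% and 1.46% of the counts. Their share was 0.00309% and 0.00378% in A replicates 1 and 2 and at most 0.00356% in AS. These low shares were fixed by the limit itself. Over the tested transcripts, Euclidean distances of log2 CPM (counts scaled to the library's total, prior count 2) were 94.7 to 138.6 between A libraries, 81.9 to 108 between AS libraries and 96.3 to 136 between an A and an AS library, so the distances within A and between A and AS overlapped. The closest A pair was replicates 2 and 3 (94.7). Replicates 1 and 2 lay 108.9 apart and replicates 3 and 5 lay 107.3 apart, so these distances did not show the 2 sets. The transcripts under the limit, which set these libraries apart, were not among those tested. The distances therefore say nothing about those transcripts. Whole animals were sequenced, and muscle, yolk and histone transcripts were found in all 7 libraries. The summed level of the 4 histones taken as markers of dividing cells was 336 to 373 CPM in A and 369 to 372 CPM in AS. In RNA from whole worms, fewer cells of a type cannot be told apart from less RNA per cell. CPM here are scaled by TMM and not divided by transcript length, so they are compared between libraries and not between genes. Gene names are those of the best matches in other species, hence each is followed by its locus tag, and functions are those known from *Caenorhabditis elegans* or other animals. Levels are listed in the order of replicates 1, 2, 3 and 5 for A and 1, 2 and 3 for AS and H.

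No single transcript was called between AS and A, and the medians of several gene groups lay away from 0. Globin and cytoplasmic ribosomal protein transcripts had median log2 fold changes of 0.56 and 0.41, with higher levels in AS, and both medians moved when single libraries were left out. The globin median was 0.30 without AS replicate 1 and 0.88 without A replicate 5, and that of ribosomal proteins 0.27 and 0.61. The lowest medians of the functional lists were those of yolk and extracellular matrix (-0.58, and -0.16 against A replicates 3 and 5 alone) and of intermediate filaments, tubulin and actin dynamics (-0.46). Transcripts of sulfurtransferases, of the respiratory chain and of malate and propionate metabolism had medians of 0.21, 0.05 and -0.04. In edgeR's quasi-likelihood test 0 of 17178 transcripts (0%) had both an FDR no higher than 0.05 and a difference of 1.5-fold or more. The smallest FDR was 0.0844. An unadjusted p under 0.05 was found for 2354 transcripts (13.7%), of which 1114 (6.49% of those tested) were higher and 1240 (7.22%) lower in AS. All 3 AS libraries lay above all 4 A libraries for 865 transcripts (5.04%) and below them for 973 (5.66%). The median log2 fold change (AS minus A) of all tested transcripts was -0.02. Other tests of the same counts gave 441 calls with DESeq2, 348 with edgeR's likelihood ratio test and 317 with its exact test, and edgeR's quasi-likelihood test gave 141 calls without A replicate 5, 12 without A replicate 1, 6 without A replicate 2 and 0 without A replicate 3 or any 1 of the AS replicates. Hence the genes below are described by their values and FDRs, and none of them is a call of the main test.

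**Figure D1:**
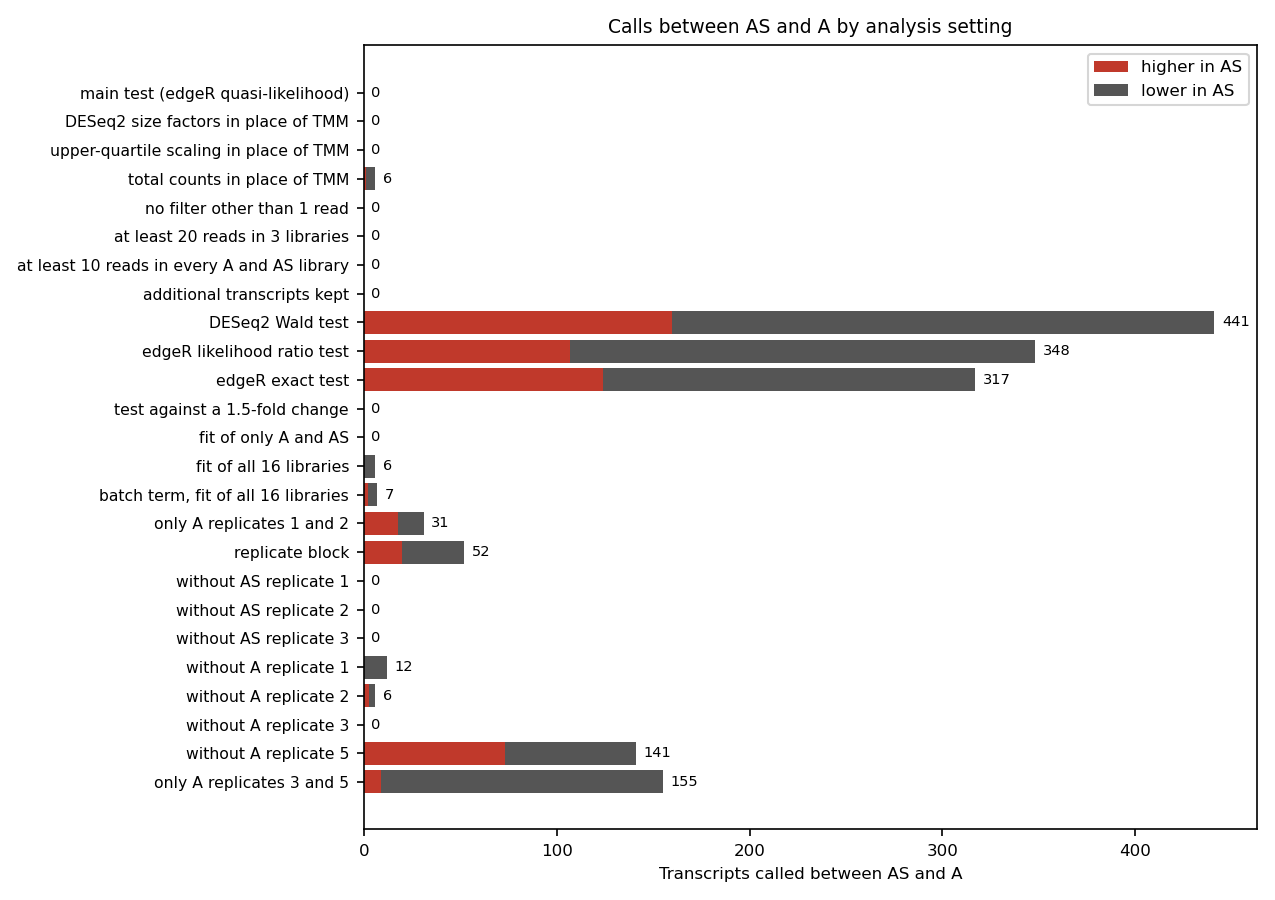
Number of transcripts called between AS and A (horizontal axis) in the main test and in each other analysis setting (vertical axis), split into transcripts higher in AS (red) and lower in AS (grey). The main test gave 0 calls, DESeq2 441, and the quasi-likelihood test without A replicate 5 gave 141.

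The 2 transcripts of smallest p in each direction had no name in the sources used here. Levels of TRINITY_DN46495_c0_g1_i2_4dedup were 82.5, 70.6, 69.3 and 53.5 CPM in A and 33.5, 31.6 and 23.5 CPM in AS (log2 fold change -1.22, SE 0.18, FDR 0.0844). Those of TRINITY_DN54284_c0_g1_i8_4dedup were 1380.2, 775, 995 and 918 CPM in A and 383, 370.1 and 272 CPM in AS (log2 fold change -1.57, SE 0.23, FDR 0.0844). Both were lower in every AS library than in any A library, and their H levels (73.5 to 80.9 CPM and 862 to 1354 CPM) lay in the range of A. In the opposite direction, TRINITY_DN53160_c0_g1_i1_4dedup was at 110.3, 124, 119 and 137 CPM in A and 254, 253 and 286 CPM in AS (log2 fold change 1.11, SE 0.17, FDR 0.0844). TRINITY_DN48832_c3_g1_i2_4dedup was at 119.6, 144, 175 and 147 CPM in A and 974, 355 and 408 CPM in AS (log2 fold change 1.98, SE 0.35, FDR 0.114), with AS replicate 1 far above the other two. The AS and A libraries of all 4 did not overlap. Of the 25 alternatives, 12 called the DN54284 transcript, 10 the DN46495 transcript, 6 the DN53160 transcript and 4 the DN48832 transcript.

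Sulfurtransferases, the enzymes that move sulfur from persulfides to acceptors, were represented by 3 loci. Of the 3, 0 had an unadjusted p under 0.05 (against 13.7% of all tested transcripts). They come only from the readable part of the study's catalogue and its lists of abundant transcripts and proteins. None of the 3 carries the name *mpst-1*, *mpst-7*, *ethe-1* or *cdo-1*, sulfur genes that the paper names. The rhodanese-domain match TRINITY_DN89863_c1_g1_i4_9dedup was at 143, 163, 171 and 238 CPM in A and 246, 187 and 189 CPM in AS (log2 fold change 0.21, 95% interval -0.17 to 0.60). The match to thiosulfate:glutathione sulfurtransferase TRINITY_DN51130_c0_g1_i7_4dedup was at 41.5, 62.2, 57.8 and 95.8 CPM in A and 101, 58 and 80.4 CPM in AS (log2 fold change 0.31, 95% interval -0.23 to 0.86), and a second such match, TRINITY_DN91419_c2_g1_i4_9dedup, at 112.7, 123, 117 and 146 CPM in A and 152, 133 and 131 CPM in AS (log2 fold change 0.16, 95% interval -0.13 to 0.44). In each case A replicate 5 was the highest A library and lay above AS replicates 2 and 3. The median log2 fold change of the 3 was 0.21 against all A libraries, 0.45 against A replicates 1 and 2 and 0.06 against A replicates 3 and 5. The upper interval limits leave a change of 1.5-fold open for 2 of the 3 loci, DN89863 and DN51130.

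Among 10 loci of the respiratory chain and of mitochondrial ATP supply, 0 had an unadjusted p under 0.05 (against 13.7% of all tested transcripts). Their log2 fold changes ran from -0.14 to 0.44 (median 0.05). The catalytic subunit of the sulfide-sensitive cytochrome *c* oxidase, *ctc-1* (COI, TRINITY_DN95486_c1_g1_i1_9dedup), was at 767, 531, 837 and 1263 CPM in A and 916, 616 and 1001 CPM in AS. Its log2 fold change was -0.01 with a 95% interval of -0.60 to 0.58, and AS lay inside the range of A. The other mitochondrially encoded transcript, *nduo-4*-like of complex I (TRINITY_DN93105_c1_g2_i1_9dedup), was at 7712, 6582, 10928 and 17512 CPM in A and 13484, 8585 and 13815 CPM in AS (log2 fold change 0.16, 95% interval -0.50 to 0.83). The highest fold change was that of T02H6.11, a subunit of complex III (TRINITY_DN90565_c0_g1_i4_9dedup), with 333, 379, 429 and 579 CPM in A and 728, 441 and 586 CPM in AS (log2 fold change 0.44, SE 0.21, FDR 0.369). The ATP synthase subunits *atp-1* (TRINITY_DN50498_c0_g1_i2_4dedup) and *atp-2* (TRINITY_DN89359_c0_g1_i4_9dedup) had log2 fold changes of 0.18 (95% interval -0.24 to 0.60) and -0.10 (-0.38 to 0.18). The ADP/ATP carriers *ant-1.1* (TRINITY_DN90352_c0_g1_i1_9dedup) and *ant-1.4* (TRINITY_DN87461_c0_g1_i2_9dedup) were at 185 to 241 CPM and 149 to 165 CPM in A, and at 194 to 209 CPM and 160.5 to 173 CPM in AS. The outer membrane channel *vdac-1* (TRINITY_DN51110_c0_g1_i4_4dedup) and the adenylate kinase matches F38B2.4 (TRINITY_DN91892_c1_g1_i3_9dedup) and ZK673.2-like (TRINITY_DN91000_c0_g1_i1_9dedup) had log2 fold changes of 0.04, -0.14 and 0.21, all with overlapping libraries. The 95% intervals were -0.18 to 0.32 for *ant-1.4*, -0.33 to 0.24 for *ant-1.1*, -0.33 to 0.40 for *vdac-1* and -0.50 to 0.23 for F38B2.4. Like that of *atp-2*, they did not reach 1.5-fold in either direction.

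For the enzymes of the TCA cycle and of malate and propionate metabolism, counts were near the shares of all tested transcripts. Of 12 loci, 0 had an unadjusted p under 0.05 (against 13.7% of all tested transcripts). Likewise, 0 had non-overlapping libraries (against 5.04% higher and 5.66% lower in AS). Their median log2 fold change was -0.04. The smallest p was that of *sucg-1*, the GTP-forming succinate-CoA ligase subunit (TRINITY_DN91061_c1_g1_i3_9dedup), with 211, 204, 164 and 311 CPM in A and 299, 334 and 249.8 CPM in AS (log2 fold change 0.40, SE 0.20, FDR 0.418). It was followed by *mdh-1*, a malate dehydrogenase (TRINITY_DN51770_c0_g1_i2_4dedup, 1062, 823, 859.9 and 968 CPM in A and 651, 956 and 693 CPM in AS, log2 fold change -0.28), and by fumarate hydratase *fum-1* (TRINITY_DN94669_c0_g1_i4_9dedup, -0.16). A second *mdh-1* locus (TRINITY_DN94238_c0_g1_i3_9dedup) had a log2 fold change of 0.07 (95% interval -0.25 to 0.39). Phosphoenolpyruvate carboxykinase, which feeds malate dismutation, had 2 loci, *pck-2-1* (TRINITY_DN54139_c0_g2_i2_4dedup, -0.17) and *pck-2-2* (TRINITY_DN94483_c1_g2_i4_9dedup, -0.17). The propionate route lay closer to 0, with log2 fold changes of 0.04 for *pcca-1* (TRINITY_DN91367_c0_g2_i2_9dedup), 0.07 for *pccb-1* (TRINITY_DN92595_c0_g1_i1_9dedup) and 0.03 for *mmcm-1* (TRINITY_DN52923_c0_g1_i2_4dedup). Their 95% intervals were -0.29 to 0.37, -0.29 to 0.43 and -0.32 to 0.38. In glycolysis, enolase *enol-1* (TRINITY_DN52430_c0_g1_i2_4dedup) was at 1100.4, 1092, 973 and 1262 CPM in A and 1459.6, 1353 and 1312 CPM in AS, without overlap (log2 fold change 0.31, SE 0.15, FDR 0.377). Aldolase *aldo-1* had log2 fold changes of 0.27 (TRINITY_DN93186_c0_g1_i12_9dedup, FDR 0.488) and 0.04 (TRINITY_DN52711_c0_g1_i4_4dedup, FDR 0.938), and one *gpd-3* locus (TRINITY_DN79428_c0_g2_i1_9dedup) of -0.04 (FDR 0.952).

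**Figure D2:**
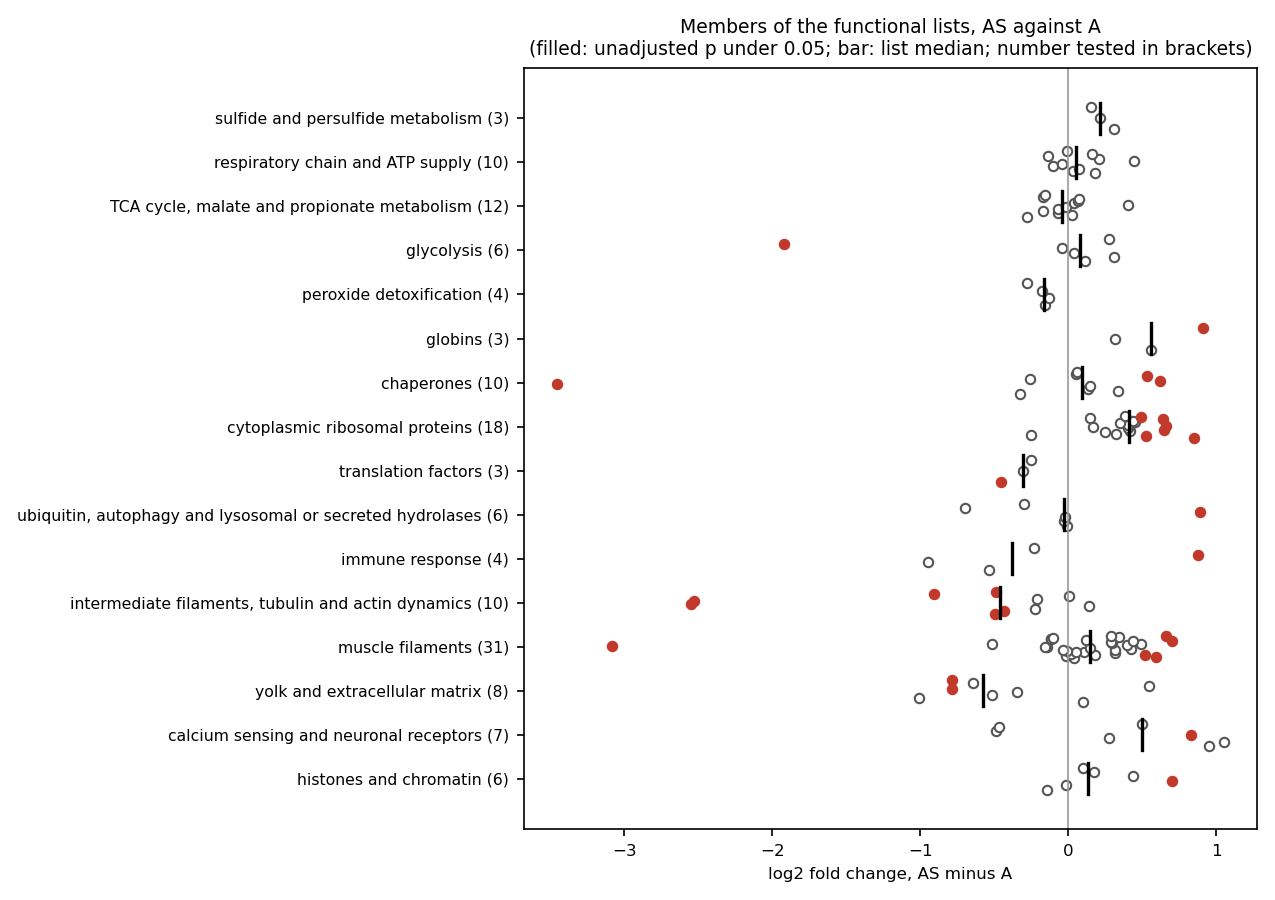
log2 fold change of AS against A (horizontal axis) for each tested member of the functional lists (rows, number tested in brackets). Filled circles have an unadjusted p under 0.05 and the black bar is the list's median, which was highest for the globins (0.56) and lowest for yolk and extracellular matrix (-0.58).

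Globins, haem proteins that bind oxygen and also sulfide, were higher in AS than in A replicates 1 and 2, and A replicate 5 lay among the AS libraries. The *glb-14*-like transcript (TRINITY_DN89314_c0_g1_i2_9dedup) was at 178, 195, 287 and 385 CPM in A and 631, 339.6 and 500.5 CPM in AS, and at 279, 197 and 216 CPM in H. Of the A libraries, only replicate 5 reached the lowest AS library (log2 fold change 0.91, SE 0.27, FDR 0.192). The *glb-1*-like transcripts, which match myoglobins, were at 251, 295, 402 and 616 CPM in A and 776, 443 and 509 CPM in AS (TRINITY_DN51537_c0_g1_i1_4dedup, log2 fold change 0.56, SE 0.29, FDR 0.425), and at 1101, 995, 1337 and 1346 CPM in A and 1826, 1136 and 1505 CPM in AS (TRINITY_DN84338_c0_g1_i3_9dedup, log2 fold change 0.32, SE 0.18, FDR 0.476). Thus 3 of 3 tested globins had positive log2 fold changes, 1 of them with an unadjusted p under 0.05, against 6.49% of all tested transcripts with such a p and higher in AS. The median of the 3 was 0.56 against all A libraries, 1.09 against A replicates 1 and 2 and 0.18 against A replicates 3 and 5. Another globin locus had too few reads to be tested. Of 4 loci of enzymes that remove peroxide, 0 had an unadjusted p under 0.05 (against 13.7% of all tested transcripts). Catalases *ctl-2* (TRINITY_DN94512_c1_g1_i8_9dedup, 3583, 3582, 3026 and 3524 CPM in A and 3022, 3365 and 2718 CPM in AS) and *ctl-1* (TRINITY_DN54162_c0_g4_i1_4dedup), peroxiredoxin *prdx-2* (TRINITY_DN47237_c0_g1_i2_4dedup) and the peroxidasin match C46A5.4-like (TRINITY_DN95018_c3_g1_i10_9dedup) had log2 fold changes of -0.18, -0.13, -0.15 and -0.28, with FDRs of 0.675, 0.831, 0.707 and 0.728.

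Transcripts of cytoplasmic ribosomal proteins were the largest group of list members with low p-values that were higher in AS. Of 18 loci, 17 had a positive log2 fold change (against 48% of all tested transcripts), and the median was 0.41. At an unadjusted p under 0.05, 6 were higher and 0 lower in AS (against 6.49% and 7.22% of all tested transcripts). The large-subunit protein *rpl-27* (TRINITY_DN44548_c0_g1_i4_4dedup) was at 416, 406, 541 and 790.0 CPM in A, 1270.3, 716 and 925 CPM in AS and 507, 436 and 458 CPM in H (log2 fold change 0.85, SE 0.25, FDR 0.184). For *rpl-24.1*-like (TRINITY_DN61953_c0_g1_i4_9dedup) the levels were 225, 231, 296 and 359 CPM in A and 515, 345 and 448 CPM in AS (log2 fold change 0.65, SE 0.20, FDR 0.201), and for *rpl-26* (TRINITY_DN86587_c0_g1_i1_9dedup) 575, 563, 751 and 1004 CPM in A and 1437, 874 and 1073 CPM in AS (log2 fold change 0.64, SE 0.23, FDR 0.251). In each of the 3, A replicate 5 was above AS replicate 2, so the groups overlapped, as they did in all 18 loci. The other 3 with an unadjusted p under 0.05 were *rpl-10* (TRINITY_DN87231_c1_g1_i1_9dedup, 0.49), *rps-24* (TRINITY_DN84827_c0_g2_i1_9dedup, 0.66) and *rpl-33* (TRINITY_DN44597_c0_g1_i2_4dedup, 0.53). The exception in sign was *rpl-2* (TRINITY_DN49199_c0_g1_i1_4dedup), at 836, 914, 912 and 1062 CPM in A and 871, 637 and 839.6 CPM in AS (-0.25, FDR 0.518).

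The ribosomal protein loci also varied together within a condition. A replicate 5 was the highest A library in 16 of 18, AS replicate 1 the highest AS library in 16 of 18 and AS replicate 2 the lowest AS library in 18 of 18, compared with 32.8%, 39.1% and 39.8% of all tested transcripts. Their summed levels were 8105, 7974, 9593 and 12611 CPM in A and 15590.4, 9478 and 13057 CPM in AS, and AS replicate 2 lay below A replicates 3 and 5. The number with an unadjusted p under 0.05 and higher AS levels ranged from 2 without AS replicate 1 to 14 without A replicate 5 and 15 without AS replicate 2. In these settings, 654, 1808 and 1506 of the 17178 tested transcripts were higher at such a p. The median of 0.41 became 0.72 against A replicates 1 and 2 and 0.19 against A replicates 3 and 5. Of the quasi-likelihood settings run, only that without A replicate 5 called *rpl-27* (log2 fold change 1.11, FDR 0.0445), whereas DESeq2 and the likelihood ratio test called it with all libraries. The 3 tested loci of translation factors lay on the other side of 0. Elongation factor *eef-1A.2* had 2 loci, at 182, 179.8, 205 and 229.7 CPM in A and 128, 160.4 and 149 CPM in AS without overlap (TRINITY_DN10043_c0_g1_i1_4dedup, log2 fold change -0.45, SE 0.15, FDR 0.229) and at 2704, 2393, 2683 and 1992 CPM in A and 1767, 2083 and 2083 CPM in AS (TRINITY_DN53482_c0_g1_i2_4dedup, log2 fold change -0.30, SE 0.18, FDR 0.474). The poly(A)-binding protein *pab-1* (TRINITY_DN54797_c2_g1_i1_4dedup) had a log2 fold change of -0.25 (FDR 0.491).

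**Figure D3:**
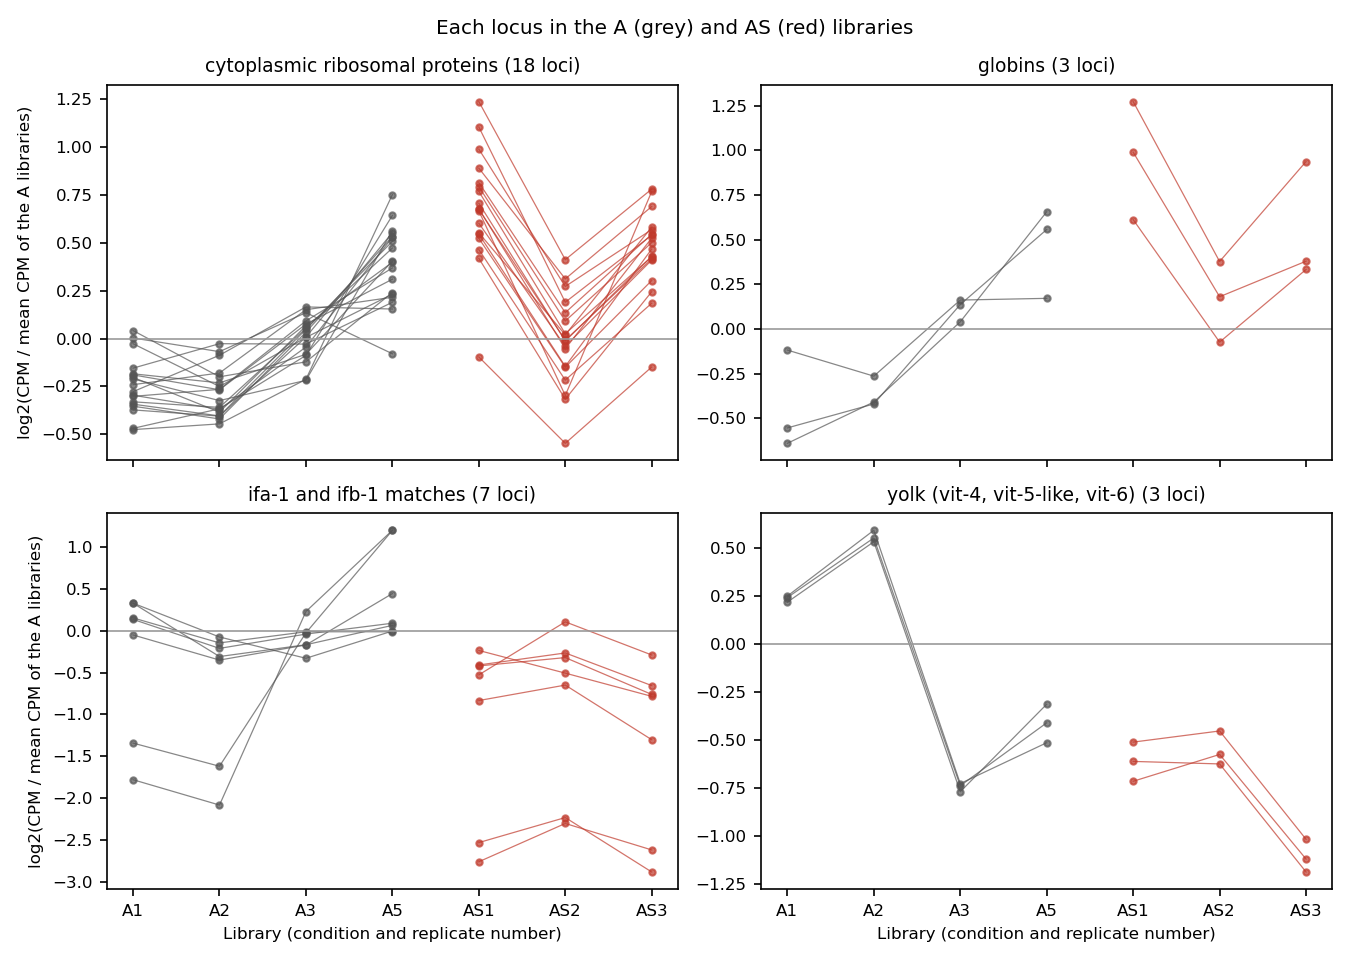
log2 ratio of each library's CPM to the mean CPM of the 4 A libraries (vertical axis) for the single loci of 4 gene groups in the A (grey) and AS (red) libraries (horizontal axis). Thin lines join the values of a locus within a condition and imply no order of the replicates. Globin loci are lowest in A replicates 1 and 2, with A replicate 5 among the AS libraries, whereas yolk loci are highest in A replicates 1 and 2.

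Chaperones gave a mixed picture, with 2 of 10 loci higher and 1 lower in AS at an unadjusted p under 0.05 (against 6.49% and 7.22% of all tested transcripts) and a median log2 fold change of 0.10, which was -0.05 without AS replicate 3. The lower one, *hsp-3*, had under 10 reads in every AS library and was tested through its A reads alone. With at least 10 reads required in every A and AS library it was not tested, and 0 of 9 chaperone loci were lower at such a p. The mitochondrial chaperonin *hsp-60* was represented by TRINITY_DN89437_c0_g1_i3_9dedup, at 59.9, 55.7, 70.2 and 67.7 CPM in A and 65.6, 106 and 104 CPM in AS (log2 fold change 0.53, SE 0.17, FDR 0.216), and by TRINITY_DN48693_c0_g1_i1_4dedup, at 59.9, 83.4, 82.6 and 99 CPM in A and 88.6, 112 and 107.1 CPM in AS (log2 fold change 0.34, SE 0.17, FDR 0.402). At the first locus AS replicates 2 and 3 were above all A libraries, and AS replicate 1 was not. The small heat shock protein *hsp-12.2* (TRINITY_DN84921_c0_g1_i2_9dedup) was at 477, 424, 644 and 995 CPM in A and 1112, 759 and 1058 CPM in AS (log2 fold change 0.62, SE 0.28, FDR 0.35). The cytosolic chaperones of the HSP70 and HSP90 families overlapped between the groups, with log2 fold changes of 0.13 for *hsp-1* (TRINITY_DN53747_c2_g1_i5_4dedup, 95% interval -0.34 to 0.61), 0.15 for *hsp-90-1* (TRINITY_DN54265_c1_g1_i3_4dedup, -0.28 to 0.57) and 0.06 for *hsp-90-2* (TRINITY_DN95139_c3_g1_i4_9dedup, -0.40 to 0.51). Polyubiquitin, whose product marks proteins for degradation, had 3 loci with log2 fold changes between -0.30 and -0.01, and the autophagy receptor match *sqst-1*-like (TRINITY_DN54584_c1_g1_i3_4dedup) one of -0.03 (95% interval -0.56 to 0.50).

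Of the named transcripts, 4 from different lists are described here because they were higher in every AS library than in every A library, as were 5.04% of all tested transcripts. They were chosen after their values were seen. The *plasminogen*-like transcript (TRINITY_DN88745_c0_g1_i1_9dedup), which matches a secreted protease precursor, was at 241, 243, 291 and 301 CPM in A, 544, 409 and 543 CPM in AS and 242, 158 and 146 CPM in H. Its mean was 269 ± 31.2 (SD, n = 4) in A and 498 ± 77.9 (SD, n = 3) in AS. The log2 fold change was 0.89 (SE 0.19, FDR 0.121) against all A libraries, 1.05 against A replicates 1 and 2 and 0.75 against A replicates 3 and 5. The transthyretin-related *ttr-35* (TRINITY_DN86074_c0_g1_i2_9dedup), of a family of secreted proteins that is large in nematodes, was at 246, 307, 338 and 417 CPM in A, 813, 453 and 603 CPM in AS and 214, 224 and 289 CPM in H. AS and A did not overlap (log2 fold change 0.93, SE 0.22, FDR 0.154), and the transcript was called without A replicate 5 (FDR 0.0495). Lysozyme-like protein 5 (TRINITY_DN58251_c0_g1_i1_9dedup), of an enzyme family that cleaves bacterial cell walls, was at 433, 382, 635 and 814 CPM in A and 1317, 983 and 823 CPM in AS, with A replicate 5 just below the lowest AS library (log2 fold change 0.88, SE 0.29, FDR 0.216). A tetraspanin-domain transcript (TRINITY_DN106748_c0_g1_i1_9dedup), a membrane protein, was at 111, 126, 179 and 125 CPM in A, 1274, 419.6 and 431 CPM in AS and 187, 149 and 459 CPM in H (log2 fold change 2.39, SE 0.44, FDR 0.114). AS replicate 1 was far above the other AS libraries, and H replicate 3 lay within the range of AS. Of the other immune response members, the galectin *lec-3* (TRINITY_DN94156_c1_g1_i2_9dedup) had a log2 fold change of -0.23 (FDR 0.575) and the interleukin-17-domain transcript (TRINITY_DN10739_c0_g1_i1_9dedup), at 0.777 to 2.08 CPM in A and 0.281 to 1.4 CPM in AS and tested through its A reads alone, one of -0.95 (FDR 0.578).

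**Figure D4:**
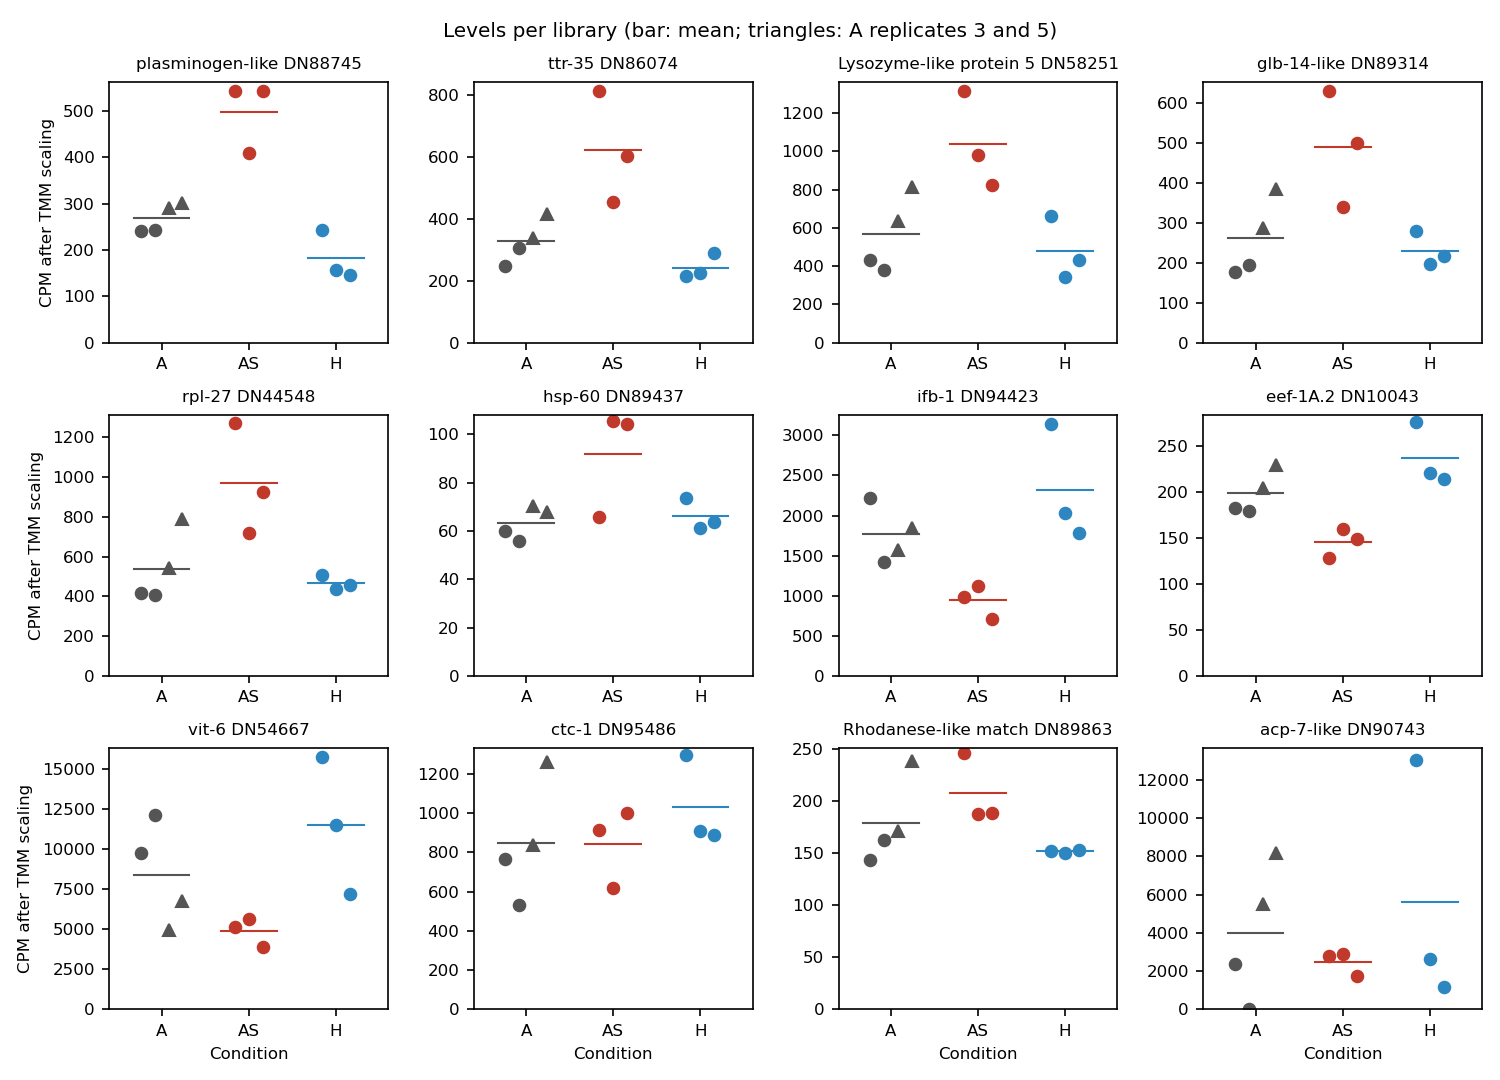
CPM after TMM scaling (vertical axes, from 0) of 12 transcripts in the A (grey), AS (red) and H (blue) libraries, with a bar at each condition's mean. Triangles mark A replicates 3 and 5. The plasminogen-like, ttr-35 and lysozyme-like transcripts lie higher and ifb-1 and eef-1A.2 lower in all 3 AS libraries than in all 4 A libraries, whereas ctc-1 and the rhodanese-domain match overlap.

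Transcripts of intermediate filaments, which line the intestine and anchor the epidermis of nematodes, were lower in AS almost library by library. All 7 loci that match *ifa-1* or *ifb-1* had negative log2 fold changes (against 52% of all tested transcripts), 6 had an unadjusted p under 0.05 (against 7.22% of all tested transcripts with such a p and lower in AS) and 5 had AS libraries entirely below the A libraries (against 5.66%). The 6 became 3 without A replicate 1 or AS replicate 3. In these settings, 1095 and 837 of the 17178 tested transcripts were lower at such a p. The counts of 6 and 5 include the DN83970 loci described below, which were highest in A replicates 3 and 5. Reads are split between near-identical transcripts, so the 7 loci may not be separate observations. The *ifb-1* locus TRINITY_DN94423_c2_g1_i3_9dedup was at 2216, 1424, 1571 and 1844 CPM in A, 989, 1124 and 714 CPM in AS and 3136, 2027 and 1781 CPM in H. Its mean was 1764 ± 348 (SD, n = 4) in A and 942 ± 209 (SD, n = 3) in AS (-0.90 on the log2 scale, SE 0.24). It had an FDR of 0.171 with all A libraries, and the log2 fold change was -0.94 against A replicates 1 and 2 and -0.86 against A replicates 3 and 5. Similarly, *ifa-1-2* (TRINITY_DN94755_c1_g1_i4_9dedup) was at 2034, 1653, 1813 and 1813 CPM in A and 1366, 1464 and 1079 CPM in AS (log2 fold change -0.49, SE 0.18, FDR 0.265), and *ifa-1-1* (TRINITY_DN53608_c0_g1_i2_4dedup) at 2709, 2130.2, 2398 and 2624 CPM in A and 1856, 2051 and 1565 CPM in AS (log2 fold change -0.43, SE 0.17, FDR 0.289). The *ifb-1* locus TRINITY_DN53316_c0_g1_i1_4dedup overlapped between the groups (1022, 829.7, 940.3 and 1440.2 CPM in A and 898, 745 and 614 CPM in AS, log2 fold change -0.49, FDR 0.331), as did *ifa-1* at TRINITY_DN92112_c0_g1_i4_9dedup (-0.21, FDR 0.66).

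The largest fold changes among the intermediate filaments were those of *ifb-1* (TRINITY_DN83970_c0_g1_i1_9dedup) and *ifa-1* (TRINITY_DN83970_c0_g2_i1_9dedup), and these depended on the set of A libraries. The first was at 14.1, 11.6, 35.2 and 82.3 CPM in A and 5.27, 7.24 and 5.81 CPM in AS (log2 fold change -2.55, SE 0.61, FDR 0.155), the second at 21.3, 17.2, 85.8 and 168 CPM in A and 12.6, 15.5 and 9.89 CPM in AS (log2 fold change -2.53, SE 0.66, FDR 0.169). Against A replicates 1 and 2 alone, the log2 fold changes were -1.06 and -0.59, whereas against A replicates 3 and 5 they were -3.26 and -3.32. Of the other cytoskeletal members, tubulin *tbb-4* (TRINITY_DN54403_c1_g1_i1_4dedup, -0.22), the profilin match *pfn-1*-like (TRINITY_DN83631_c0_g1_i3_9dedup, 0.14) and the actin-depolymerising factor F53E2.2 (TRINITY_DN92524_c0_g1_i3_9dedup, 0.01) had FDRs of 0.686, 0.871 and 0.996. The list as a whole had a median log2 fold change of -0.46.

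Muscle filament transcripts followed the libraries more than the conditions. Among 31 loci, 4 were higher and 1 was lower in AS at an unadjusted p under 0.05 (against 6.49% and 7.22% of all tested transcripts), 0 had non-overlapping groups (against 5.04% and 5.66%), and the median log2 fold change was 0.15. The number higher was 0 without AS replicate 1 and 14 without A replicate 5, and the median then was 0.06 and 0.41. In these settings, 654 and 1808 of the 17178 tested transcripts were higher at such a p. The 1 lower locus was the *unc-54* match TRINITY_DN78019_c0_g1_i2_9dedup, which was high only in A replicates 3 and 5. A replicate 5 was the highest A library in 31 of 31 loci and AS replicate 1 the highest AS library in 29 of 31. Summed over the list, levels were 25788, 28052, 30593 and 43306 CPM in A and 42603, 31639.9 and 32835 CPM in AS. Myosin heavy chain *unc-54* at TRINITY_DN95524_c1_g2_i3_9dedup was at 247, 329, 269.8 and 394 CPM in A and 619.6, 465 and 389.5 CPM in AS (log2 fold change 0.66, SE 0.23, FDR 0.234), and the calponin match *cpn-3* (TRINITY_DN42721_c0_g1_i1_4dedup) at 438, 494, 707 and 761 CPM in A and 1032, 694 and 992 CPM in AS (log2 fold change 0.59, SE 0.24, FDR 0.292). Myosin *myo-3* (TRINITY_DN49355_c0_g1_i3_4dedup, 0.52) and myosin light chain *mlc-2* (TRINITY_DN91582_c0_g1_i2_9dedup, 0.70) were the others higher in AS at an unadjusted p under 0.05. Further *myo-3* loci had log2 fold changes of 0.42 (TRINITY_DN54745_c2_g4_i2_4dedup) and -0.52 (TRINITY_DN88723_c2_g1_i3_9dedup). The list's median was 0.53 against A replicates 1 and 2 and 0.02 against A replicates 3 and 5.

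Yolk proteins, made in the intestine of egg-bearing nematodes, had the lowest levels in AS replicate 3, but again the A libraries were split. Vitellogenin *vit-6* (TRINITY_DN54667_c1_g1_i1_4dedup) was at 9771, 12154, 4924 and 6756 CPM in A, 5113, 5634 and 3860.0 CPM in AS and 15745, 11518 and 7213 CPM in H (log2 fold change -0.79, SE 0.32, FDR 0.303). *vit-4* (TRINITY_DN95726_c1_g1_i2_9dedup) was at 1620.1, 2009, 820.4 and 1030.0 CPM in A and 896, 888 and 601 CPM in AS (log2 fold change -0.79, SE 0.33, FDR 0.311), and *vit-5*-like (TRINITY_DN95726_c0_g2_i2_9dedup) at 2805, 3558, 1424 and 1651 CPM in A and 1654, 1722 and 1164 CPM in AS (log2 fold change -0.64, SE 0.33, FDR 0.428). A replicates 1 and 2 were higher than every AS library for all 3, and A replicate 3 lay inside the range of AS for all 3. Accordingly, the log2 fold changes were -1.16, -1.18 and -1.06 against A replicates 1 and 2, and -0.26, -0.22 and -0.02 against A replicates 3 and 5. Of the extracellular matrix members, the basement membrane protein *ost-1* (TRINITY_DN85793_c0_g1_i7_9dedup, 912, 1054, 1418 and 3281 CPM in A and 3158, 2090.3 and 2056 CPM in AS) had a log2 fold change of 0.55 (FDR 0.588) and the cuticle collagen *col-96*-like (TRINITY_DN50946_c0_g1_i4_4dedup) one of -0.51 (FDR 0.681).

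**Figure D5:**
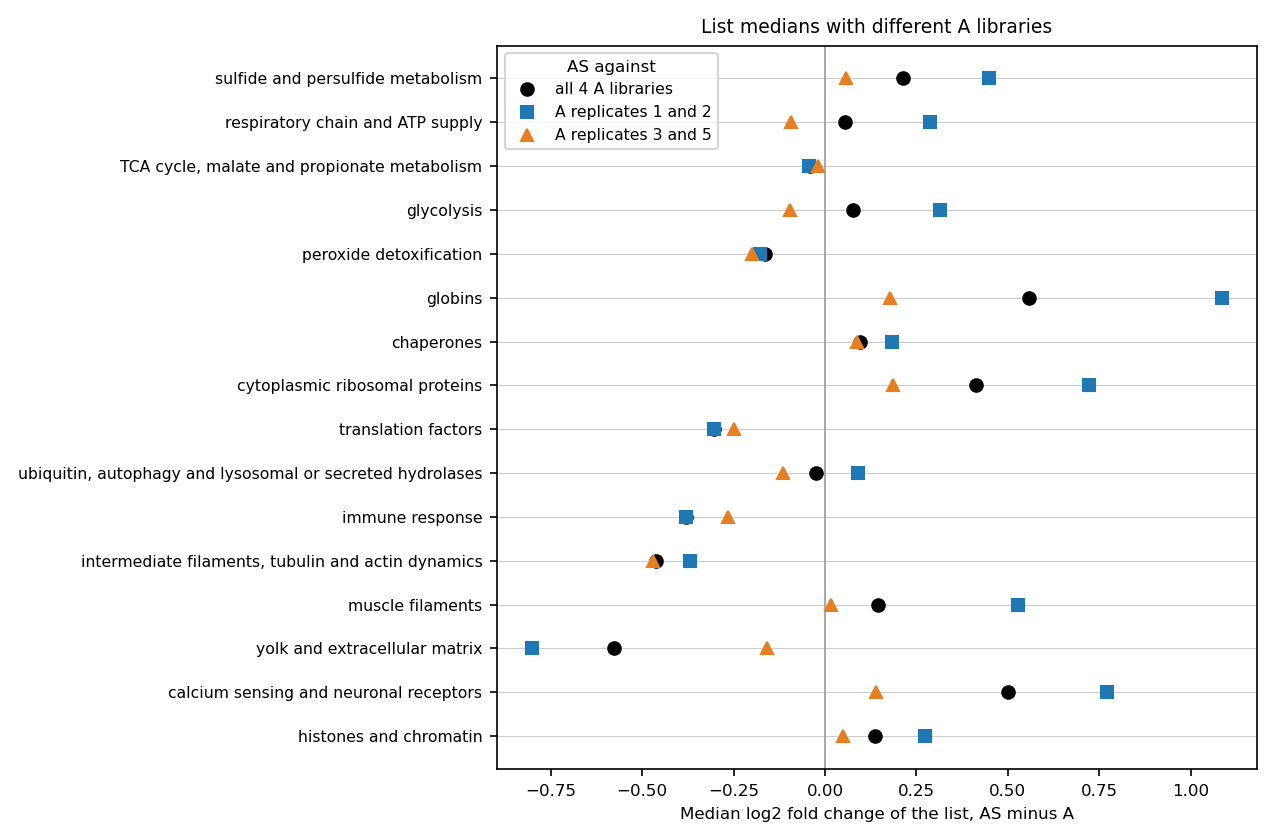
Median log2 fold change of each functional list (horizontal axis; lists on the vertical axis) when the 3 AS libraries are set against all 4 A libraries (black circles), A replicates 1 and 2 (blue squares) or A replicates 3 and 5 (orange triangles). The globin median is 1.09 against replicates 1 and 2 and 0.18 against replicates 3 and 5, while that of intermediate filaments, tubulin and actin dynamics is -0.37 and -0.47.

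The list of calcium sensing and neuronal receptors (7 loci tested) and that of histones and chromatin (6) each had 1 member with an unadjusted p under 0.05, which is near the 13.7% of all tested transcripts. The calexcitin match *cex-2*-like (TRINITY_DN50837_c0_g1_i1_4dedup), a neuronal calcium sensor, was at 227, 252, 303 and 610.3 CPM in A and 759, 463 and 635 CPM in AS (log2 fold change 0.83, SE 0.31, FDR 0.266), with A replicate 5 inside the range of AS. Without A replicate 5 it was called (log2 fold change 1.26, FDR 0.0393). The *cex-1*-like locus TRINITY_DN91465_c0_g1_i1_9dedup and the calmodulin relative *cal-5* (TRINITY_DN83308_c0_g1_i2_9dedup) had log2 fold changes of 0.50 and -0.47 (FDR 0.479 and 0.454). The histone variant *htz-1* (TRINITY_DN82296_c0_g1_i1_9dedup), which marks promoters of active genes, was at 64.8, 57.4, 84.8 and 93.4 CPM in A, 146, 92.9 and 128 CPM in AS and 66.1, 62.2 and 82.8 CPM in H (log2 fold change 0.70, SE 0.20, FDR 0.183). Its AS levels exceeded all A levels except that A replicate 5 was just above AS replicate 2. The replication-dependent histone *his-14* (TRINITY_DN87869_c0_g1_i7_9dedup) had a log2 fold change of 0.17 (95% interval -0.19 to 0.54), and the high mobility group match *hmg-1.1*-like (TRINITY_DN86820_c0_g1_i2_9dedup) one of 0.44 (FDR 0.463). Nucleoside diphosphate kinase *ndk-1* (TRINITY_DN93568_c0_g1_i1_9dedup), which balances nucleotide pools, was at 68.8, 74.5, 97.9 and 221 CPM in A and 223, 138 and 168 CPM in AS (log2 fold change 0.61, SE 0.34, FDR 0.462), and was called against A replicates 1 and 2 alone and without A replicate 5 (FDR 0.0399). A second *ndk-1* locus (TRINITY_DN52354_c1_g1_i3_4dedup) had a log2 fold change of 0.20 (95% interval -0.05 to 0.45).

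A few transcripts with low p-values were high only in A replicates 3 and 5. The *hsp-3* match, an HSP70 of the endoplasmic reticulum (TRINITY_DN64852_c0_g1_i1_9dedup), had 11, 4, 138 and 174 reads in A and 4, 7 and 9 in AS (log2 fold change -3.45, SE 1.13, FDR 0.215). A second *gpd-3* locus (TRINITY_DN80994_c0_g1_i1_9dedup) had 75, 80, 283 and 822 reads in A and 53, 91 and 81 in AS (log2 fold change -1.92, SE 0.76, FDR 0.29), and an *unc-54* match (TRINITY_DN78019_c0_g1_i2_9dedup) had 21, 17, 137 and 820 reads in A and 35, 25 and 19 in AS (log2 fold change -3.08, SE 1.18, FDR 0.276). In O, the *hsp-3* locus had 96, 265 and 92 reads in replicates 2, 3 and 5 and 11, 7 and 16 in replicates 1, 4 and 6. For the *gpd-3* locus these were 192.8, 614 and 498 against 110, 38 and 54 reads, and for the *unc-54* locus 162, 491 and 553 against 43, 12 and 12. Against A replicates 1 and 2 alone their log2 fold changes were 0.17, 0.29 and 0.83, so the direction turned. These transcripts were grouped here by their levels in A replicates 3 and 5, and the cause of those levels was not tested. No difference between AS and A is read from them.

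Of 429 further loci annotated in the part of the transcript catalogue that could be read, 43 were tested, and 5 had an unadjusted p under 0.05, against 13.7% of all tested transcripts. The 1 higher in AS was the tetraspanin-domain transcript. The other 4 did not reach 10 reads in all 3 AS libraries and were tested through their A reads alone, so the filter favoured lower AS levels and no difference is read from them. With at least 10 reads required in every A and AS library, 9 catalogue loci were tested, 0 were lower at such a p, and the median log2 fold change was 0.02 in place of -0.72. The *IHH* match (TRINITY_DN101262_c0_g1_i1_9dedup), named after a hedgehog signalling protein of vertebrates, had 0, 35, 76 and 74 reads in A and 0 in each AS library. The ion channel domain transcript TRINITY_DN108087_c0_g1_i1_9dedup had 16, 50, 16 and 12 reads in A and 7, 7 and 6 in AS. The match to *MCMBP*, a binding partner of the replicative helicase (TRINITY_DN102339_c0_g1_i1_9dedup), had 2, 31, 53 and 11 reads in A and 1, 3 and 3 in AS. A replicate 1 was as low as the AS libraries for *IHH* and *MCMBP*. The match to *RAB11FIP4*, an effector of endosomal Rab11 (TRINITY_DN10262_c0_g1_i1_9dedup), was at 0.278, 0.671, 5.6 and 3.36 CPM in A and 0.297, 0.703 and 0.668 CPM in AS, and was high only in A replicates 3 and 5.

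The acid phosphatase match *acp-7*-like (TRINITY_DN90743_c0_g1_i2_9dedup), of a family of lysosomal and secreted hydrolases, varied widely between libraries of a condition. Its levels were 2355, 2.29, 5491 and 8164 CPM in A, 2769.8, 2876 and 1750.5 CPM in AS and 13025, 2603 and 1181 CPM in H. A replicate 2 had 41 reads against 42425, 87263 and 126321 in A replicates 1, 3 and 5. The log2 fold change was -0.70 (95% interval -3.53 to 2.13), and it was 1.08 against A replicates 1 and 2 and -1.47 against A replicates 3 and 5.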

How the data were processed

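RNA-seq libraries of 16 batches of *L. oneistus* were analysed by the authors. Symbiont and ribosomal RNA reads were removed, the rest was assembled *de novo*, and the deposited tables hold RSEM expected counts per transcript, not normalised. RSEM 1.3.1, Bowtie2, Trimmomatic and FastQC are named in the submitters' processing notes. RSEM splits reads between near-identical transcripts, so levels of paralogues (*ifa-1* and *ifb-1*, muscle, polyubiquitin) are uncertain singly. No reference genome, transcript sequence or length was used here.

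Expected counts were rounded to whole numbers and fitted with edgeR 4.0.16 (R 4.3.3, limma 3.58.1) with TMM scaling and 1 mean for each of A, AS and H. AS was contrasted with A by the quasi-likelihood F-test, and p-values were adjusted by the Benjamini-Hochberg method over 17178 transcripts. A call needed an FDR no higher than 0.05 and a difference of 1.5-fold. The SE is the log2 fold change divided by the square root of F. The 95% intervals come from the same fit. Figures were drawn with Python 3.11.15 and matplotlib 3.10.9. The pipeline was tested on simulated counts in which 200 transcripts above the median abundance were changed. It called 56% of log2 changes of 1 and 100% of log2 changes of 2. In the libraries, DN48832 (log2 fold change 1.98) and the tetraspanin-domain transcript (2.39) were not called in the main test (FDR 0.114 each). Hence 0 calls in the main test do not exclude 2-fold changes or larger ones.

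Replicates of a condition differed by more than counting noise (chi-square per degree of freedom 25.5 to 89.5 over 9 pairs), so none is a repeated deposit. Depth was 13865529 to 17673789 counts per library.

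The members and gene lists were chosen with earlier results of these data known. Names come from the part of the study's catalogue that could be read and from its lists of abundant transcripts and proteins. Of 611 such loci 222 were tested. Named are all members of the sulfide, globin and respiratory chain lists, up to 3 members of smallest p in each other functional list, loci known only from the catalogue with an unadjusted p under 0.05, the 2 transcripts of smallest p in each direction, and list members called in the test or without 1 replicate. Others are named as context for their list and were chosen after their values were seen. In total 25 alternatives were run, among them DESeq2 1.42.0, other scalings and filters, a replicate block, a batch term and each replicate left out.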

Additional observations from a re-analysis of the deposited data

Results flagged for a closer look

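Of 66 named transcripts, 3 had 1 A library set apart from the other 3 by more than Dixon's 95% critical value. Chance alone sets apart about 1 in 20 such groups. The ion channel domain transcript TRINITY_DN108087_c0_g1_i1_9dedup was at 2.8 CPM in A replicate 2 and at 0.776 to 1.01 CPM in the other A libraries. The *unc-54* match TRINITY_DN78019_c0_g1_i2_9dedup was at 53 CPM in A replicate 5, against 0.951 to 8.62 CPM in the others. Catalase *ctl-2* (TRINITY_DN94512_c1_g1_i8_9dedup) was at 3030 CPM in A replicate 3 and at 3524 to 3583 CPM in the others. The 3 AS libraries were too few for the same comparison.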

How the results depend on the processing

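Of 25 alternatives, 1 (only A replicates 3 and 5) was chosen after seeing the data. Calls numbered 0 in the main test, 6 with total counts in place of TMM, 441 with DESeq2, 348 with the likelihood ratio test, 317 with the exact test, 6 in a fit of all 16 libraries, 7 with a batch term added to it, 31 against A replicates 1 and 2, 155 against A replicates 3 and 5, and 0 to 141 with 1 replicate left out. The replicate block is given below, and the other settings gave 0. Of 66 named genes, 31 had an unadjusted p under 0.05, against 13.7% of all tested transcripts. Many were named for a small p in this same test, so the count reflects that choice. The 31 became 17 when tested against a 1.5-fold change and 19 against A replicates 3 and 5. With 1 replicate left out they became 19 (without AS replicate 1) to 42 (without A replicate 5). List members with such a p (29) became 8 against a 1.5-fold change, 62 against A replicates 1 and 2, 13 against A replicates 3 and 5, and 16 (without AS replicate 1 or A replicate 1) to 62 (without A replicate 5). Of all 17178 tested transcripts, 2354 had such a p in the main test and 682 against a 1.5-fold change. Against A replicates 1 and 2 it was 3022, and against A replicates 3 and 5 it was 1512. Without AS replicate 1, A replicate 1 or A replicate 5 it was 1587, 1831 or 3184, so these totals moved too.

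With the replicate block, 52 transcripts were called (20 higher in AS) and 54 list members had an unadjusted p under 0.05. Of all 17178 tested transcripts, 2932 had such a p in this setting. Deviations from the group means correlated at 0.08 (replicate 1), 0.25 (replicate 2) and -0.01 (replicate 3) between same-numbered A and AS libraries, and A replicate 1 correlated best with AS replicate 3 (0.15), so the numbers were not read as pairs.

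Of 66 named genes, many of them named for a small p, 19 were called in at least 1 alternative. The log2 fold changes of 15 changed sign in some, and the cause was not tested. Against A replicates 1 and 2 they were 0.24 for *RAB11FIP4* (0.45 with the batch term), 0.0075 for *prdx-2*, 0.17 for *hsp-3*, 0.83 for *unc-54* DN78019 (0.62), 0.29 for *gpd-3* DN80994 (0.20), 0.064 for *ant-1.1* (0.013), 1.08 for *acp-7*-like (0.48), 0.043 for F38B2.4 and 0.39 for ctc-1(COI) (0.067). With the replicate block they were 0.052 for *ant-1.1*, 1.03 for *acp-7*-like and 0.26 for ctc-1(COI). Against A replicates 3 and 5 they were -0.038 for *atp-1*, -0.15 for *vdac-1*, -0.019 for *his-14* and -0.25 for *nduo-4*-like. For ctc-1(COI) they were 0.019 without a filter, 0.000555 in the exact test, 0.000574 in a fit of only A and AS and 0.000573 with all 16 libraries. With 1 replicate left out they spanned -0.028 to 0.20 for *vdac-1*, -0.19 to 0.000438 for *atp-2*, -0.097 to 0.045 for *ant-1.1*, -0.011 to 0.52 for *nduo-4*-like, -0.47 to 0.076 for C46A5.4-like and -0.18 to 0.26 for ctc-1(COI). The *hsp-3*, *MCMBP*, *IHH* and ion channel domain transcripts rest on few reads.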
